A study of Homo sapiens with 9 samples.

Results

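Binding sites of the splicing factor SF3B1 that lie outside every annotated gene were examined in K562, an established human leukaemia line. A site belonged to this set when its centre fell in no RefSeq gene span of assembly GRCh38.p14, whatever the biotype of the gene. Of 96852 sites in the deposited list, 503 met this rule, a share of 0.519% (95% Wilson interval 0.476% to 0.567%). The other 96349 sites lay inside at least 1 gene span. By strand, 244 of the outside sites were plus and 259 minus, and they were spread over 23 chromosomes.

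SF3B1 belongs to U2 snRNP, a small nuclear RNA-protein particle that pairs with the branch point of an intron and prepares the 3′ splice site for cutting. Because U2 snRNP works on nascent RNA, its contacts mark transcribed stretches as well as introns. A site beyond an annotated gene can lie in RNA that continues past a polyadenylation site (read-through), in RNA that begins before the annotated start, or in a transcript that the annotation lacks.

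Sites were mapped by iCLIP: protein and RNA are joined by ultraviolet light, the protein is immunoprecipitated, and sequencing of the attached RNA locates the crosslinked nucleotide. The series comprised 9 untreated libraries: 3 of SF3B1 from SF3B1 wt/wt cells, 2 of SF3B1 from K700E/wt cells, which carry one mutant allele, and 4 of U2AF2, the factor of the polypyrimidine tract, from SF3B1 wt/wt cells. Only 1 merged list, which the labels attach to the 3 SF3B1 libraries of wt/wt cells, was used, and the other 6 libraries were not analysed here. The header of the list speaks of either condition, so no site is assigned to a genotype. The labels give the source of K562 as chronic lymphoid leukaemia, whereas the line is generally known as chronic myeloid leukaemia. The list holds no read number and no value per replicate. Depth is therefore unknown, intervals cover counting error only, and no test over samples was possible.

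A total of 8 outside sites fell in the promoter windows of the RefSeq sequence table, which reach from 250 bases before a start to 50 bases after it. This table does not cover every gene. Sites as close to the start of RNU5E-1, RPL23, ERBIN, FLJ46284 and LINC01203, by strand from sites, are for example not among the 8. All 8 lay on the strand of the gene. For 7 of them the sequence is shown, because it gives the letters around a site that lies before an annotated start. The eighth, 44 nt before a protein-coding gene, is given by its base content only. Each runs 5′ to 3′ on the strand of the site, is cut to at most 40 bases on either side of the site centre to the window and to the part outside genes, and has the bases of the 5 nt site in capitals. The build is GRCh38.p14.

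SNHG8, chr4:118278720-118278761, plus strand: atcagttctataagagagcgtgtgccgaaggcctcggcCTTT
RPL17, chr18:49492466-49492517, minus strand: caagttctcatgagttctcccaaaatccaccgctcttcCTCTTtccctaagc
ARMC10, chr7:103075066-103075139, plus strand: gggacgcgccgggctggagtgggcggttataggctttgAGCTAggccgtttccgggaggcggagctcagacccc
DDAH2, chr6:31730451-31730513, minus strand: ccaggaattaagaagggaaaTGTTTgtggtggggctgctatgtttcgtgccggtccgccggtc
LOC105377411, chr4:126464306-126464356, minus strand: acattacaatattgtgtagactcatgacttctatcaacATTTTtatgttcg
LOC124900777, chr4:126434958-126435038, minus strand: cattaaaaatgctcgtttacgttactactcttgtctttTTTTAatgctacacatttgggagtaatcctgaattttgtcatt
LOC100131289, chr6:27761636-27761716, plus strand: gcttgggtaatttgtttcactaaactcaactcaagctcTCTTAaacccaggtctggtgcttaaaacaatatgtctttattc

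The first 2 sequences belong to a non-coding gene and to a ribosomal protein gene. SNHG8, a non-coding host gene of a small nucleolar RNA, had its site centred 2 nt before the annotated start, so that the last base of the site is the first base of the gene and only 4 site bases are shown. RPL17 encodes a protein of the large ribosomal subunit, and its site was centred 12 nt before the start, which it shares with the RPL17-C18orf32 read-through gene. Transcripts of ribosomal protein genes typically begin with a run of pyrimidines. The printed RPL17 stretch consisted of C or T at 69.2% of its bases and the SNHG8 stretch at 50%. ARMC10, which encodes an armadillo repeat protein, had its site 34 nt before the start in a stretch with 43.2% C or T. The DDAH2 stretch, with 46% C or T, contained a site 228 nt before the start of DDAH2, an enzyme gene of methylarginine breakdown, but its nearest gene was CLIC1, a chloride channel gene, whose end lay 90 nt away on the same strand. The non-coding genes LOC105377411, LOC124900777 and LOC100131289 had sites 11, 42 and 68 nt before their starts, with 58.8%, 61.7% and 58.0% C or T. The stretch not printed was the lowest of the 8, with 23.5% C or T. T made up 7.41% of it and between 17.6% and 44.4% of the others, so base content varied widely among the 8. Over all 34943 distinct promoter windows, T made up 21.5% and C or T 49.9% of the 250 bases before the start. The letters CTNAC, a loose match to a branch point, occurred on the sense strand of these 250 bases in 3 of the 8 windows with a site and on the antisense strand in 2. The shares over all windows were 50.1% and 50.7%.

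Many outside sites lay close to a gene of some kind. The distance from a site centre to the nearest gene span ranged from 1 nt to 370614 nt, with a median of 2966 nt and quartiles of 879.5 and 11124 nt. Within 1 kb of a gene lay 144 of the 503 sites, or 28.6% (95% Wilson interval 24.9% to 32.7%), against 4.59% of the bases between genes. Within 10 kb lay 370 sites, or 73.6% (69.5% to 77.2%), against 30.4% of these bases. With protein-coding genes only as the nearest, the median rose to 31237 nt. The bases between genes include stretches without known sequence, and sites of one locus are not independent, so no test was made. At the limit of the rule, 34 outside sites were within 100 nt of a gene, and 219 sites inside genes were within 100 nt of the limit of a merged gene span. The closest was a site 1 nt before RNU5E-1, a gene of the U5 small nuclear RNA. It was followed by sites 2 nt past MIR3916 and 2 nt before SNHG8, 5 nt before RPL23, a ribosomal protein gene, and 7 nt before ERBIN, which encodes a scaffold protein of cell junctions. The non-coding gene FLJ46284 had sites 13 and 51 nt before its start, and LPAR2, a receptor gene for lysophosphatidic acid, had 1 at 261 nt.

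Where the nearest gene of any biotype had a known strand, most outside sites lay on that strand. With protein-coding genes only as the nearest, the share was 51.8% of 450 sites, so the statement holds for the nearest gene of any kind and not for the nearest coding gene. The gene table has no strand, so strand was taken from the promoter and miRNA tables, which covered 89 of the 178 nearest genes, or otherwise from the majority of sites inside the gene, which raised the number to 124. With both sources, 311 of 364 sites were on the strand of the gene, or 85.4% (95% Wilson interval 81.4% to 88.7%). With the tables alone, which do not depend on the sites, the number was 190 of 229, or 83.0% (77.6% to 87.3%). Counting 1 site per locus and the tables alone gave 77 of 95, or 81.1% (72.0% to 87.7%). By both sources, 197 sites were downstream of the gene and on its strand, 114 upstream and on its strand, 28 downstream on the opposite strand and 25 upstream on the opposite strand. The other 139 sites had a nearest gene without a strand. Sites downstream and on the strand had a median distance of 3078 nt over 64 genes. Those upstream and on the strand had one of 1032.5 nt over 41 genes.

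**Figure D1:**
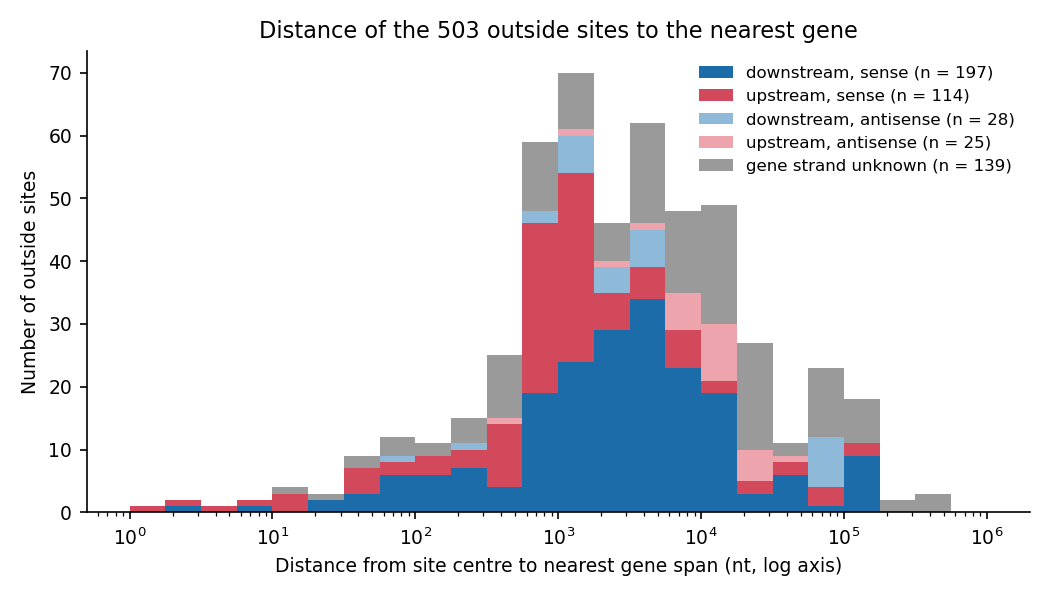
Number of outside sites by distance to the nearest gene span (nt, log axis), stacked by position and strand relative to that gene. The 197 sites downstream and on the strand of the gene (dark blue) have a median of 3078 nt. The 114 upstream sites on the strand (red) have one of 1032.5 nt. With 1 site per locus and strand from the tables, the medians are 2430.5 and 1098 nt. The third quartiles are then 12505 and 10034.5 nt.

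Most outside sites shared a locus with another outside site, although most loci held a single site. Linking sites on one strand at most 5 kb apart gave 193 loci, of which 113 held a single site. The 49 loci with at least 3 sites held 328 sites (65.2%), and the 10 loci with the most sites held 154 (30.6%). Sites on the opposite strand were rare near them: 6 of the 193 loci, with 19 outside sites, had any site of the list on the other strand within 5 kb. Among the 49 loci with at least 3 sites, 47 had none. In 49 loci, with 213 outside sites, a site inside a gene lay on the same strand within 5 kb. In the other 144 loci, with 290 sites, none did.

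**Figure D2:**
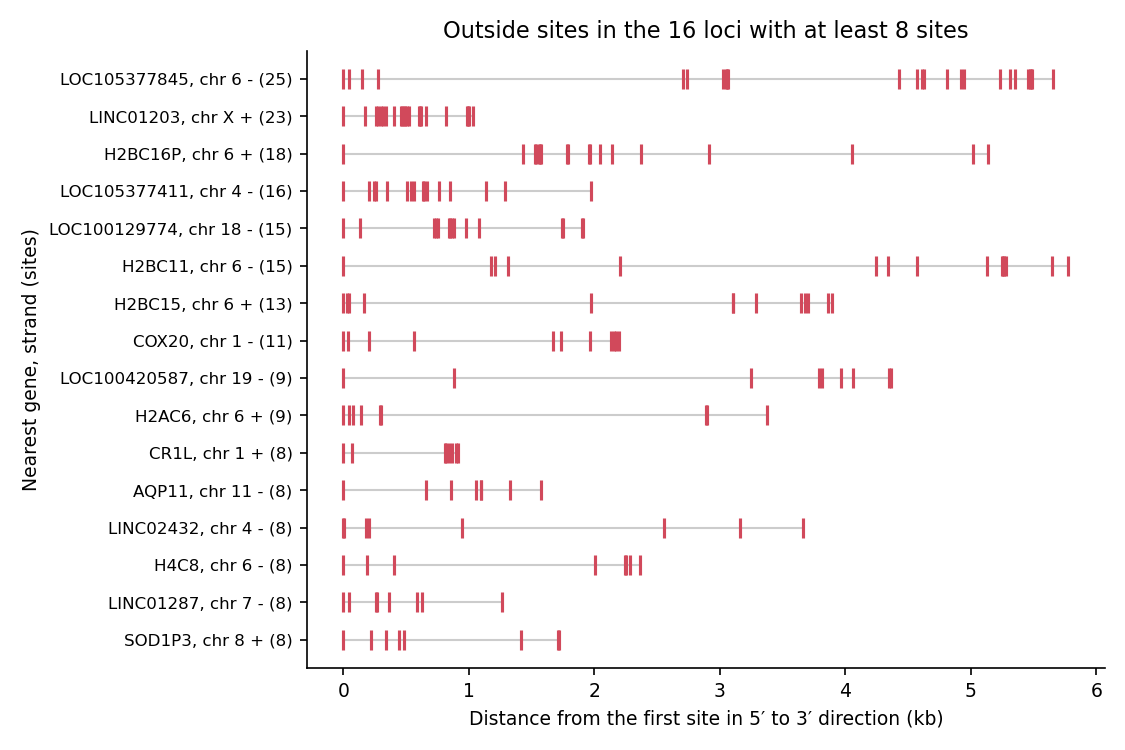
Outside sites (ticks) of the 16 loci with at least 8 sites, in kb from the first site in the 5′ to 3′ direction; each row is named by the gene nearest to most of its sites, with chromosome, strand and number of sites. The 25 sites near LOC105377845 stretch over 5654 nt, whereas the 23 sites near LINC01203 fall within 1032 nt.

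Several loci lay directly before the annotated start of a non-coding gene and were followed by sites inside it on the same strand. LINC01203, a long non-coding RNA gene on the plus strand of chromosome X from 13335241 to 13341825, had 23 outside sites upstream of its start. They were centred 1106 to 74 nt before the start, a density of 22.3 sites per kb, and 18 further sites lay inside the gene. The strand of LINC01203 was taken from those 18 sites. The last upstream site and the first site inside the gene were 136 nt apart, so sites lay close together on both sides of the annotated start. Linked at 100 kb, plus-strand sites inside genes also preceded the upstream sites, from position 13310972 on. That chain held 62 sites inside genes, of which 18 were in LINC01203. Whether the upstream sites belong to RNA of LINC01203 was not tested. LOC105377411, on the minus strand of chromosome 4 from 126462017 to 126464305, had 16 outside sites 1986 to 11 nt before its start and 6 inside. The site closest to its start is the one whose sequence is printed above. LINC01287, on the minus strand of chromosome 7 from 153399919 to 153412234, had 8 outside sites 1624 to 364 nt before its start and 17 inside. In order, they were 1624, 1577, 1364, 1355, 1259, 1037, 999 and 364 nt away. These 3 genes accounted for 47 of the 114 upstream sites on the strand of the gene.

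Among protein-coding genes with a strand in the tables, upstream sites came singly or in pairs. By the tables alone, 60 sites lay upstream on the strand of 28 genes, of which 8 were protein-coding and 18 long non-coding. IL23A, a cytokine subunit gene, had 2 sites, 1877 and 1098 nt before its start. DDX56, an RNA helicase gene, had 1 site 386 nt before its start and 20 sites inside. ALKBH5, which encodes an RNA demethylase, had 1 site 579 nt before its start and no site inside. Of the 28 genes, 14 had at least 1 site inside on the same strand.

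Sites past the annotated end were found at protein-coding and at non-coding genes. With strand from the tables, 130 sites were downstream on the strand of 43 genes, 24 of them protein-coding, and 26 of the 43 had at least 1 site inside. LOC105377845, a long non-coding RNA gene on the minus strand of chromosome 6 from 67886974 to 67932198, had 25 outside sites, the most of any gene by nearest-gene assignment. They were centred 21 to 5675 nt past its end, and 9 sites lay inside. Its strand came from those 9 sites. CR1L, a complement receptor-like gene on the plus strand of chromosome 1 from 207645133 to 207723703, had 60 sites inside and 8 beyond its end. These were 74, 146, 882, 892, 919, 936, 969 and 989 nt past the end, with 6 of them in 1 cluster. The CR1L site nearest to the end inside the gene was 2 nt from it. LINC02432 on chromosome 4 had 20 sites inside and 8 sites 1178 to 4836 nt past its end, again with strand from sites.

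HNRNPU illustrates the limits of assigning a site to its nearest gene. It encodes an abundant nuclear RNA-binding protein and lies on the minus strand of chromosome 1 from 244850297 to 244864543. The locus past its end held 11 outside sites on the minus strand, 1386 to 3583 nt beyond it. For 4 of these sites HNRNPU was the nearest gene. For the other 7 it was COX20, a cytochrome oxidase assembly gene that ends on the plus strand from the other side, and these counted as downstream on the opposite strand. HNRNPU contained 74 sites, the last of them 3868 nt before its end, so the final stretch of the gene held none. AQP11, an aquaporin gene without a strand in the tables, had 1 site inside on the minus strand and 7 outside sites on the minus strand 556 to 1469 nt from it, which by that single site counted as upstream on its strand. The next gene on that side was CLNS1A, whose product takes part in snRNP assembly, which had 21 sites inside on the minus strand and 1 outside site 2045 nt past its end in the same locus.

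Smaller groups of sites followed the ends of other coding genes. POLQ, a DNA polymerase gene of end joining, had 3 sites 838 to 895 nt past its end and 27 inside. NAA15, a subunit gene of an N-terminal acetyltransferase, had 3 sites 2152 to 2194 nt past its end and 29 inside. ECD, whose product takes part in splicing, had sites 8 and 40 nt past its end, and NSUN6, an RNA methyltransferase gene, had sites 42 and 127 nt past its end. DDX1, an RNA helicase gene with 66 sites inside, had 1 site 1660 nt past its end. NAT10, an RNA acetyltransferase gene with 41 sites inside, had 1 site 623 nt past its end. For the 75 downstream sites whose gene had a site inside (of 130, strand from the tables), the nearest such site was a median of 3526 nt away. Both sources of strand gave 142 of 197 sites and a median of 4249 nt. A gene whose strand came from its sites has a site inside by definition. The sites added in this way therefore raise the first number and say nothing about continuation.

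**Figure D3:**
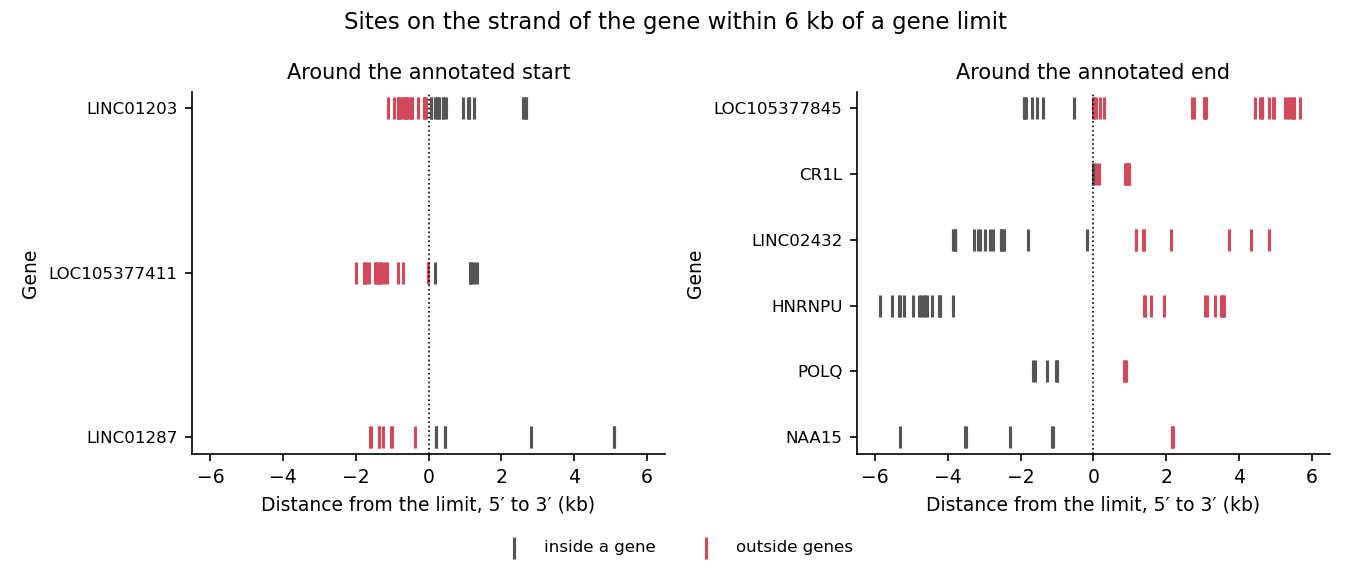
Sites on the strand of the gene within 6 kb of the annotated start (left, 3 genes) or end (right, 6 genes), in kb from that limit in the 5′ to 3′ direction; grey ticks are inside a gene and red ticks outside every gene. Sites of LINC01203 lie on both sides of its start, with 23 outside and 18 inside, while the sites past the end of HNRNPU begin 1386 nt beyond it.

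Histone genes were nearest to a large number of outside sites. Replication-dependent histone genes have no introns, and their mRNA normally ends at a stem-loop without a poly(A) tail shortly after the coding region. A histone gene or pseudogene was nearest to 67 of the 503 outside sites, or 13.3% (95% Wilson interval 10.6% to 16.6%). Such genes are 0.147% of all genes in the table. Counted by locus, they were 7 of 193, or 3.63% (1.77% to 7.30%), because sites within a locus are not independent. They made up 67 of the 104 outside sites on chromosome 6. By contrast, 9 sites lay inside histone genes, in 5 of the 88 genes and pseudogenes of this family in the table. The family was singled out after the nearest genes were known.

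The histone sites formed 7 loci. By nearest gene, 49 of the 67 sites were downstream of a histone gene and on its strand. For the rest the nearest gene was H2BC16P or H1-12P, pseudogenes without a known strand. Those sites were set against a histone gene that ends upstream of them on their own strand, so their strand match follows from that choice. H2BC15, which encodes a histone H2B, lies on the plus strand from 27838569 to 27839110 and contained 0 sites. Beyond its end, 31 sites followed on the plus strand between 27841508 and 27855661, which is 2398 to 16551 nt past the end. For 14 of them H2BC15 was the nearest gene and for 17 it was the pseudogene H2BC16P. H2BC11, another H2B gene on the minus strand from 27132316 to 27132795, had 1 site inside and 15 sites 559 to 6336 nt past its end. H2AC6, a histone H2A gene on the plus strand from 26124172 to 26124690, had 0 sites inside and 12 beyond its end. The first were at 70, 112, 144, 207, 364 and 370 nt, and the last at 12409, 13346 and 13357 nt. H4C8, a histone H4 gene on the minus strand from 26285126 to 26285534, had 2 sites inside and 8 at 1242 to 3601 nt past its end. A single site near the pseudogene H1-12P lay 532 nt past the end of H3C4, a histone H3 gene. The sites thus began at a different distance in each gene, from 70 nt in H2AC6 to 2398 nt in H2BC15.

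**Figure D4:**
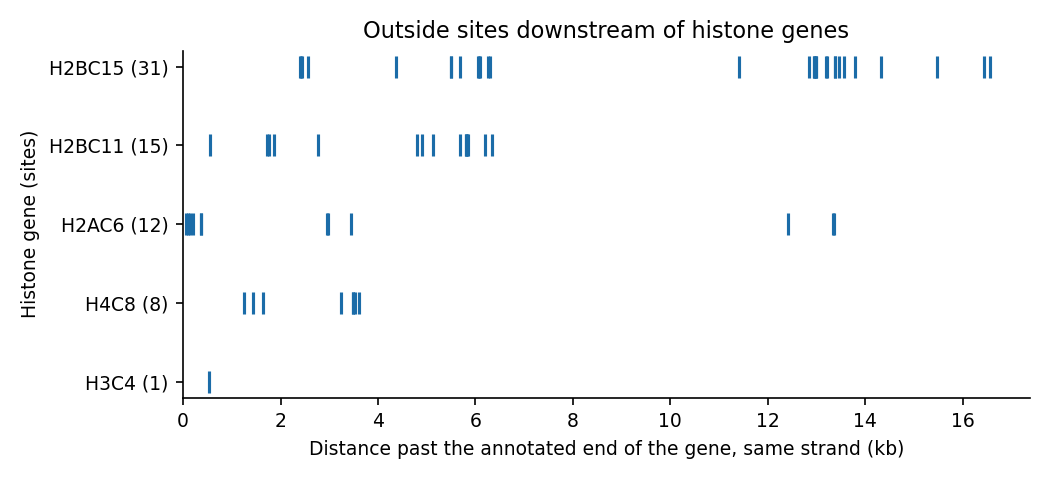
Outside sites (ticks) downstream of 5 histone genes on the strand of the gene, in kb past the annotated end; the number of sites is in brackets. H2BC15 has the most, 31 sites, reaching 16551 nt past its end.

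Other loci with many sites lay near pseudogenes and non-coding genes. On the minus strand of chromosome 18, 15 sites with centres from 1360073 to 1361981 lay between the pseudogene LOC100129774, nearest to 10 of them, and the non-coding gene LINC00470. LINC00470 had 16 sites inside on the minus strand, the nearest of them 568 nt from the locus. On the minus strand of chromosome 19, 9 sites lay 11078 to 15437 nt before LOC100420587, a transcribed pseudogene whose sites are mostly on the plus strand. The nearest site inside a gene on the minus strand was 120278 nt from them. On the plus strand of chromosome 17, 6 sites within 173 nt lay 7067 to 7240 nt before LOC105371703, a non-coding gene on the minus strand that contained 0 sites on the plus strand. On chromosome X, 6 sites lay 5039 to 6335 nt from the pseudogene GPX1P1, and on chromosome 22, 7 sites lay between PARP4P3 and TPTEP1. The pseudogene SOD1P3 had 7 plus-strand sites 65 to 737 nt from it. They shared a locus with a site 114 nt past the end of the non-coding gene LINC00861. LINC00861 had 18 sites inside on the plus strand, from which its strand was taken. The nearest of these was 892 nt from the locus. The non-coding gene LOC100130964 had 5 sites at 4778 to 5019 nt. At MIR3916, a miRNA gene on the minus strand of chromosome 1, sites were centred 2, 27, 1723, 1730 and 1760 nt past the end.

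A further group of sites lay far from any gene. Beyond 50 kb from a gene were 47 sites, and beyond 100 kb 23 sites. The 4 farthest were minus-strand sites of chromosome 1, with centres from 194785708 to 194858819, at 297503, 364106, 364115 and 370614 nt from the pseudogene RNU6-983P. Another 5 sites formed a cluster of 42 nt on the plus strand of chromosome 2, with centres between 75915925 and 75915967, at least 163829 nt from the non-coding gene LOC105374813. Before it on the same strand lay a cluster of 3 sites, 132299 to 132346 nt from the same gene. On chromosome 4, the minus strand carried 4 sites between 126698252 and 126698363, at least 133316 nt from RBM48P1. On chromosome 13, the minus strand carried 4 sites within 158 nt, at least 98335 nt from GYG1P2. On chromosome 13, a single minus-strand site lay 234869 nt from RNU6-67P. Of the 25 loci with sites beyond 50 kb, 13 held 1 such site.

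Linking all sites of the list on one strand at most 100 kb apart gave 52 chains with at least 3 outside sites. In 17 chains, with 88 outside sites, there was no site inside a gene. The longest of these were a chain of 5 sites over 97.5 kb on the plus strand of chromosome 16, near LOC100133127, and a chain of 10 sites over 73.4 kb on the plus strand of chromosome 17, near LOC105371703. In the other 35 chains, outside sites lay among sites inside genes. The chain of LINC01203 on chromosome X held 92 sites over 69.3 kb, of which 30 were outside genes. That of LOC105377411 on chromosome 4 held 33 sites over 131.3 kb, of which 22 were outside genes.

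Short distances between sites were frequent outside genes as they were inside, while long distances were larger in the much smaller outside set. Neighbours were sought within each set alone, so a site inside a gene never counted as the neighbour of an outside site. The long distances of the sets are therefore not directly comparable. The median distance between neighbours on one strand was 213.5 nt outside genes and 201 nt inside, but the third quartile was 84391 nt outside and 2437.5 nt inside. Neighbours 5 to 12 nt apart made up 15.4% of the distances outside and 15.9% inside. Pairs 25 to 45 nt apart numbered 101 outside genes and pairs 46 to 66 nt apart 36, so that the first were 2.81 times as frequent. Inside genes the numbers were 21931 and 6150, a ratio of 3.57. Between 20 and 60 nt the most frequent distance, after adding up 3 adjacent distances, was 37 nt inside genes, while outside 32 and 36 nt were tied with 22 pairs each. The wider spacing known from genes was weaker outside, with 67 pairs 140 to 180 nt apart and 55 pairs 60 to 100 nt apart, a ratio of 1.22 against 1.71 inside. These differences were not tested, because pairs in a locus share sites.

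**Figure D5:**
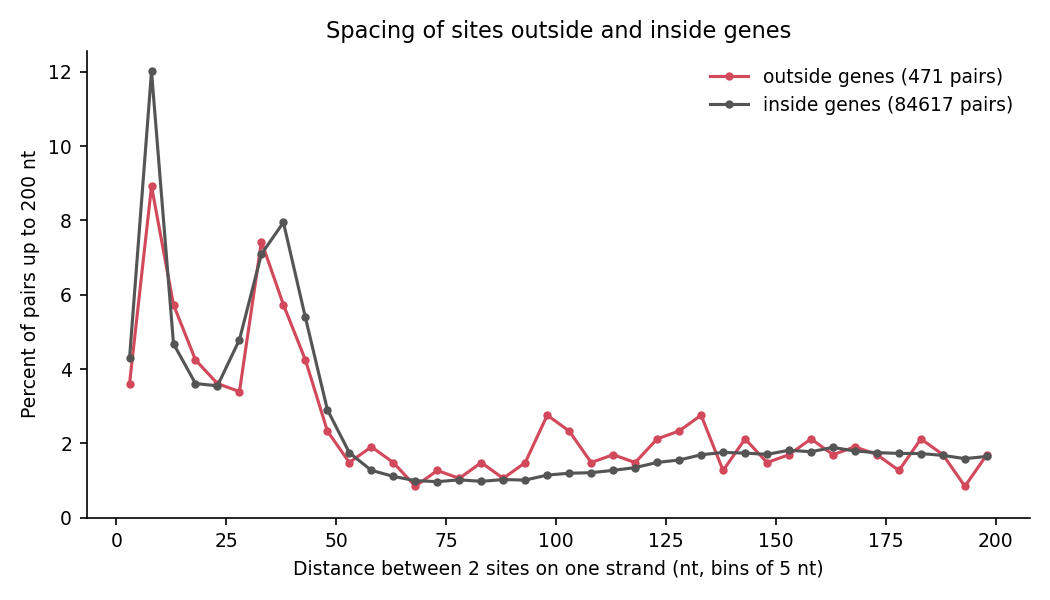
Distances between sites on one strand up to 200 nt, in bins of 5 nt, as a percentage of all such pairs, for sites outside genes (red) and inside genes (grey). Both lines are highest in the bin of 6 to 10 nt, although the most frequent single distance is 5 nt (17 pairs outside, 3634 inside), and both rise again between 30 and 40 nt; the red line rests on few pairs and is uneven above 50 nt.

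Clusters were small on both sides of the gene limits. Outside and inside sites were linked separately, so a partner across a gene limit was not counted. Linked at 60 nt, outside sites formed 338 clusters with a mean of 1.49 sites, and 53.3% of sites (95% Wilson interval 48.9% to 57.6%) had a partner in their cluster. Inside genes the mean was 1.57, and 59.8% (59.5% to 60.1%) had one. There were 64 clusters of 2 outside sites and 39 clusters of at least 3, the latter with 140 sites. The largest had 7 sites over 121 nt upstream of LINC01203, with gaps of 57, 8, 16, 8, 13 and 19 nt in the direction of transcription. The next held 6 sites over 107 nt past the end of CR1L, with gaps of 10, 27, 17, 33 and 20 nt. Clusters of 5 sites lay near LINC01203, H2BC16P, LOC105374813 and KIF13B, a kinesin gene whose cluster was on the opposite strand, 3431 nt past its end. Sites inside genes preceded the KIF13B cluster on the plus strand, the nearest of them 12617 nt away. Linked at 100 kb, that chain held 34 of them. The cluster near H2BC16P had gaps of 10, 25, 6 and 6 nt, and that near LOC105374813 gaps of 7, 24, 5 and 6 nt, so that each had 1 wide gap between sites otherwise at most 10 nt apart.

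Chromosomes contributed unequally. Chromosome 6 carried 104 outside sites, or 20.7% (95% Wilson interval 17.4% to 24.4%), against 5.99% of all sites. Chromosome 4 carried 57, or 11.3% (8.85% to 14.4%), against 3.89%. Chromosome 9 carried 2, or 0.398% (0.109% to 1.44%), against 3.84%, and chromosome 3 carried 8, or 1.59%, against 6.20%. The nearest gene was a long non-coding RNA gene for 224 sites (44.5%; 40.2% to 48.9%), while such genes are 30.7% of the table. It was protein-coding for 145 sites (28.8%, against 33.6% of genes) and a pseudogene not annotated as transcribed for 93 (18.5%, against 26.1%). It was a miRNA gene for 14 sites, 6 of them past MIR4712 and 5 past MIR3916, as counted from the annotated span of the miRNA gene. MIR4712 contained 0 sites. The nearest plus-strand site inside a gene lay before MIR4712, 5117 nt from the first of its outside sites.

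The 3 gene lists chosen for K562 and for SF3B1 were not represented. No outside site had as its nearest gene any of 25 globin and erythroid genes, 19 genes of U2 snRNP and branch point recognition, or 11 genes of the segment that is amplified in K562 around BCR, ABL1 and NUP214. A count of 0 among 503 sites would allow a share of up to 0.596% for each list if sites were independent. Sites of one locus are not, so this limit is too narrow. The lists make up 0.0419%, 0.0318% and 0.0184% of all genes, all below that limit.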

How the data were processed

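The data were 1 BED list of SF3B1 iCLIP binding sites. Per the file headers, the deposited sites are 5 nt wide and merged, and each was found in every replicate of one condition or the other; the score column of the deposited list is 0 in every row. The submitters' processing notes name FastQC 0.11.8, STAR 2.7.3a and 2.6.1b, UMI-tools 1.0.0, bedtools 2.27.1 and the builds GRCh38.p10 and GRCh38.p12, with no role or order. The site caller is not given in the sources used here. Filtering for reproducibility can remove sites in rare RNA, which bears on RNA outside genes.

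Each site centre, 1-based, was placed in or between the 59679 RefSeq gene spans of GRCh38.p14, a later patch of the same build. Gene strand came from the RefSeq promoter and miRNA tables, otherwise from the majority of sites in the gene. For genes with both, 6654 of 7259 were equal, and 2556 of 2562 of those that overlap no other gene. Exons were not used. Sequences are from the RefSeq promoter table. Names were drawn, not exhaustively, from the 25 genes nearest to most sites, clusters of at least 3 sites, the 5 farthest sites and sites within 300 nt before a start, with counts inside a gene taken on the strand of the outside sites; the other genes were chosen after their values were seen. The set and the lists were chosen with earlier results of these data known. Assignment was checked on simulated data: 500 of 500 made-up sites were recovered with gene, distance and place. These sites were placed close to genes with a strand in the tables, free flanks and no overlapping gene. Sites between close genes or beside genes without a strand were therefore not covered by the check. Alternatives covered the site position, gene spans, strand source, linking distance and counting unit. Python 3.11.15, NumPy 2.4.6 and pandas 2.3.3 were used.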

Additional observations from a re-analysis of the deposited data

How the results depend on the processing

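The number of outside sites depends on the gene spans. Without pseudogenes it was 1173 (1.21% of the list), with protein-coding and long non-coding genes only 1193 (1.23%), and with protein-coding genes only 2905 (3.00%), since fewer genes were counted. Extending gene spans by 1 kb left 359 sites (0.371%), by 5 kb 203 (0.210%) and by 10 kb 133 (0.137%). The share of sites with a partner was 58.4% with clusters linked at 100 nt, 38.8% at 30 nt and 44.6% with 1 site per region number. The share on the strand of the nearest gene was 88.9% with strand from sites only. With protein-coding genes only as the nearest, it was 51.8%, the share downstream and on the strand 35.8% and the median distance 31237 nt; the cause was not tested. The other alternatives run stayed within 1.5 times of the value for numbers and shares of the list, ratios and distances, and within its 95% Wilson interval for shares of outside sites. The share of downstream sites whose gene has a site, 72.1%, was 57.7% with strand from the tables only. The higher share is fixed in part by the rule, since a gene with strand from its sites always has a site inside. No paired analysis was possible because replicates had been merged into 1 list, and for the same reason none could be left out in turn. The linking of loci at 2 and 10 kb, the restriction of strand from sites to genes without overlap, the removal of histone sites and the recount of the gene lists were added after seeing the data. Without read numbers, an unmarked stretch cannot be told from one with too little RNA.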

Other observations

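Downstream of LOC105377845, 2 clusters of 4 sites resembled each other. One, with gaps of 17, 11 and 5 nt in the direction of transcription, covered positions 67881465 to 67881502 of chromosome 6 on the minus strand, and the other, with gaps of 19, 11 and 5 nt, positions 67883889 to 67883928. Whether the underlying sequence repeats was not tested. Downstream of MIR4712 on the plus strand of chromosome 15, 2 loci of 3 sites each both spanned 411 nt, at 1023 to 1434 nt and at 9872 to 10283 nt from the gene; their middle sites lay at different places.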
